A study of Rattus norvegicus with 6 samples.

Results

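The AP-1 and early growth response factors described here are 10 genes, Fos, Fosb, Fosl1, Fosl2, Jun, Junb, Jund, Egr1, Egr2 and Ier2, taken by matching their symbols to the gene rows of 6 rat RNA sequencing libraries. All 10 were found, each in 1 row, among 31038 listed genes, and all 10 passed the filter on low counts that left 12724 genes for testing. Of the 6 libraries, 3 came from cells that had received an siRNA against eIF3m and 3 from cells that had received a control siRNA. An siRNA is a short double-stranded RNA that leads to degradation of a matching mRNA, and eIF3m belongs to the multi-subunit initiation factor eIF3, which acts when ribosomes are loaded onto mRNA. All 6 libraries are labelled as rat myocardial cells under the name NRVM, which the labels do not spell out, with the heart muscle of rat embryos as their source and serum in their growth medium. The protocol text also names dexamethasone, isobutylmethylxanthine and insulin, a medium used to differentiate cells, and does not say whether these cells received it. The time between siRNA and harvest is not given in the sources used here, and the labels do not say that replicates were separate cultures, so p-values reflect variation among these libraries that could be technical.

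AP-1 is a family of transcription factors that bind DNA as dimers through a basic region and a leucine zipper. Fos proteins need a partner, usually a Jun protein, while Jun proteins also pair with each other. Fos, Fosb, Jun, Junb, Egr1, Egr2 and Ier2 are immediate early genes: serum, growth factors, stretch and stress switch them on within minutes, without new protein synthesis, and their mRNAs are short-lived. In the heart and in muscle they are known as early responders to mechanical load, adrenergic stimulation and reperfusion.

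Library totals lay between 2156186 and 10061575 counts in the eIF3m siRNA libraries, the lowest being replicate 2, and between 7437285 and 8603602 in the control siRNA libraries. Eif3m stood at 92.0, 84.1 and 87.6 CPM in eIF3m siRNA replicates 1, 2 and 3, against 138, 136 and 141 CPM in control siRNA replicates 1, 2 and 3, a change of -35.9% (edgeR quasi-likelihood test, adjusted p = 1.41e-07). CPM here is the count relative to a library total rescaled by TMM, a method that takes most genes as unchanged, and a level of 3 counts, the floor, was worth 0.287 to 1.33 CPM. Among 15 cardiomyocyte markers, 11 in each eIF3m siRNA library and 10 in each control siRNA library lay below 5 CPM. Their summed level was 261 to 280 CPM in eIF3m siRNA libraries and 572 to 587 CPM in control siRNA libraries, most of it from Tnnt2, cardiac troponin T, and Tnnc1, troponin C. Myh6 and Myh7, the cardiac myosin heavy chains, did not exceed 1.05 and 0.191 CPM in any library. The summed level of 11 skeletal myoblast markers was 39.5 to 46.5 CPM in eIF3m siRNA libraries and 81.5 to 88.2 CPM in control siRNA libraries. The sums of 2 other marker lists were larger: 8 smooth muscle and pericyte markers summed to 3704 to 3897 CPM in eIF3m siRNA libraries and 5669 to 5808 CPM in control siRNA libraries, with 5 of 7 tested lower and 2 higher. Most of this smooth muscle and pericyte sum was Acta2, with means of 2465 CPM in eIF3m siRNA and 3529 CPM in control siRNA libraries. Cspg4 and Notch3 were the 2 higher. The 8 fibroblast markers summed to 14336 to 14671 CPM in eIF3m siRNA libraries and 13409 to 13599 CPM in control siRNA libraries, with 4 of 6 tested higher and 2 lower. Most of that sum was Col1a1, a collagen chain, with means of 13266 CPM in eIF3m siRNA and 12050 CPM in control siRNA libraries. Of the 8 fibroblast markers, 4 lay below 5 CPM in each control siRNA library and in eIF3m siRNA replicates 2 and 3. In eIF3m siRNA replicate 1 it was 1 of the 8. Thy1 and Ddr2 were the 2 lower. The eIF3m siRNA replicate 1 library stood apart in 6 erythroid markers, whose sum was 6232 CPM there, 230 and 51.1 CPM in eIF3m siRNA replicates 2 and 3, and 31.5 to 78.2 CPM in control siRNA libraries. In 8 endothelial markers it held 175 CPM, against 22.6 and 13.5 CPM in eIF3m siRNA replicates 2 and 3 and 8.87 to 15.5 CPM in control siRNA libraries. Its sum of 8 leukocyte markers was 51.9 CPM, against 21.3 and 22.9 CPM in eIF3m siRNA replicates 2 and 3 and 28.9 to 31.4 CPM in control siRNA libraries, and Dcn, the proteoglycan decorin of the fibroblast list, stood at 55.5 CPM in it and at no more than 2.21 CPM in the other 5. Results are therefore also given without it.

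Of the 10 members, 7 rose with eIF3m siRNA and 0 fell. Egr1 and Egr2 rose over 3-fold, to 60.9 and 8.50 CPM in eIF3m siRNA libraries, against 19.4 and 2.27 CPM in control siRNA libraries. Fos, Fosb and Ier2 rose 1.66-fold, 1.87-fold and 1.58-fold, Fosl2 1.32-fold and Junb 1.14-fold. Fosl1, Jun and Jund, at 1.04-fold, 1.02-fold and 1.02-fold, did not pass the test. The count of 7 risen among 10 tested compares with 17.4% of all 12724 genes tested that passed toward higher values and 21.2% that passed toward lower values, at adjusted p under 0.05. The members were chosen with earlier results of these data known, so this comparison is not independent of the data. Egr1 and Egr2 passed with a rise of at least 2-fold, as did 2.62% of genes tested. With edgeR 0 members fell, also at an unadjusted p under 0.05, and the same count was obtained with DESeq2 and limma-voom. The median log2 fold change of the 10 members was 0.53, against 0.01 over all genes tested. In 8 members, namely the 7 that rose and Jun, the eIF3m siRNA libraries all lay above the control siRNA libraries on scaled CPM, while 23.3% of all genes tested were separated in that direction. In bulk RNA, more cells that express a gene cannot be told apart from more of its RNA per cell.

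**Figure D1:**
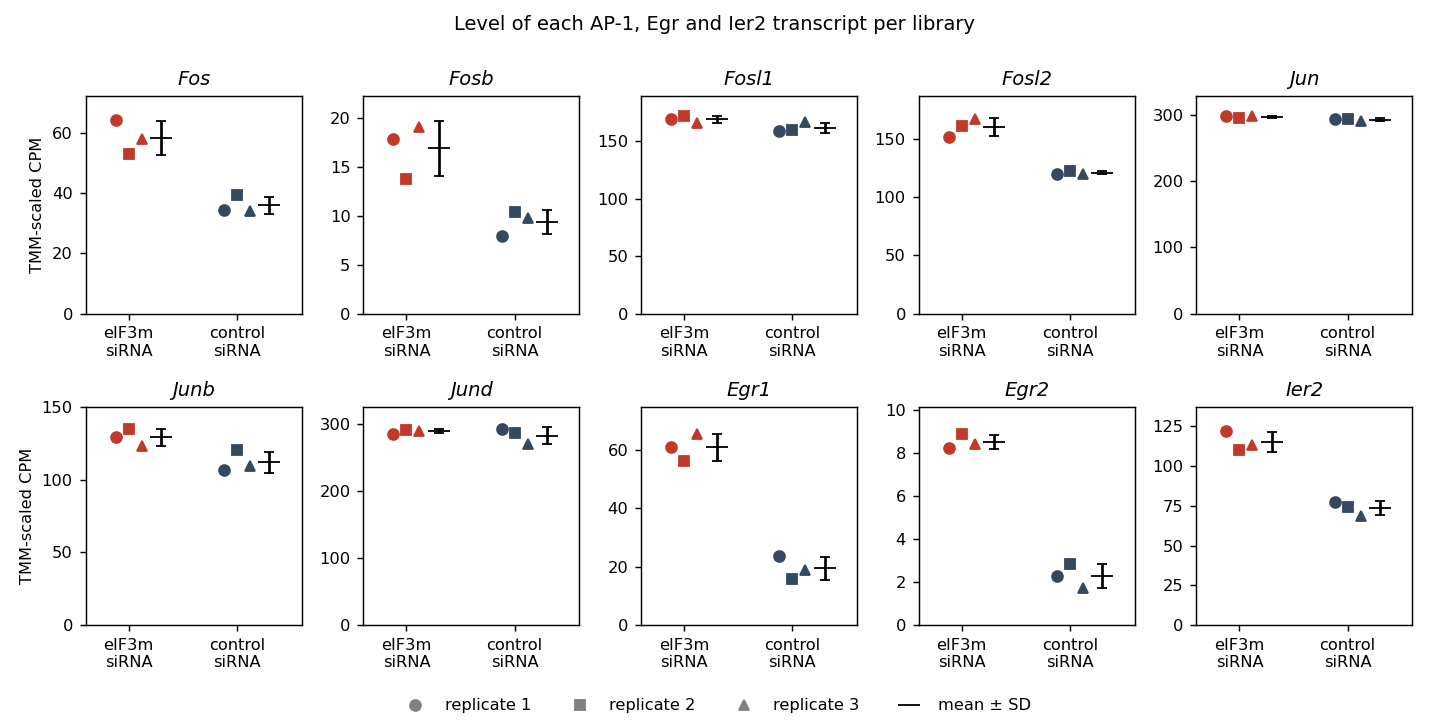
Level of each member in TMM-scaled CPM (vertical axes start at 0) in 3 eIF3m siRNA libraries (left, red) and 3 control siRNA libraries (right, dark blue), with marker shape for the replicate number and a bar for the mean and SD. The Egr1 points of the eIF3m siRNA libraries lie between 56.2 and 65.4 CPM and those of the control siRNA libraries between 15.7 and 23.5 CPM, while the Jund points overlap.

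The early growth response genes changed most. Egr1 encodes a zinc finger factor that binds GC-rich promoter sites and Egr2 a close relative best known for its role in myelinating Schwann cells. Egr1 was measured at 61.1, 56.2 and 65.4 CPM in eIF3m siRNA replicates 1, 2 and 3, and at 23.5, 15.7 and 19.0 CPM in control siRNA replicates 1, 2 and 3. The lowest eIF3m siRNA library was thus more than 2-fold above the highest control siRNA library. The log2 fold change was 1.68 ± 0.11 SE, with a 95% interval from 1.44 to 1.92 (edgeR quasi-likelihood test, adjusted p = 1.46e-08), and its size was above that of 99.1% of genes tested. Egr2 was measured at 8.22, 8.85 and 8.42 CPM in eIF3m siRNA replicates 1, 2 and 3, and at 2.27, 2.82 and 1.73 CPM in control siRNA replicates 1, 2 and 3. These levels rest on 86, 20 and 70 counts in eIF3m siRNA replicates 1, 2 and 3 and on 16, 22 and 14 counts in control siRNA replicates 1, 2 and 3, all above the floor. The groups did not overlap, and the log2 fold change of 1.89 ± 0.25 SE (95% interval 1.36 to 2.42, adjusted p = 2.13e-05) overlapped in its interval with that of Egr1. Without eIF3m siRNA replicate 1 the log2 fold changes were 1.70 for Egr1 and 1.92 for Egr2, and both passed.

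Promoter windows are printed for Egr1, Egr2, Ier2 and Jund. Those of Egr1 and Egr2 carry the binding motif of serum response factor, the CArG box, within 250 bases of their starts, and those of Ier2 and Jund do not. A CArG box is CC, then 6 bases that are A or T, then GG. The RefSeq promoter table of assembly GRCr8 covers 250 bases before to 50 bases after each gene's start, and it matched 8 of the 10 members, all except Fos and Jun. Its coordinates belong to that assembly and not to rn6, the build named for the files. Capitals mark matches of 4 motifs searched on both strands: the CArG box, the AP-1 element TGANTCA, the cyclic AMP element TGACGTCA and the EGR motif GCGNGGGCG. The letters of the cyclic AMP element and the AP-1 element differ in spacing, so no match of one is a match of the other, and no matches overlapped. Egr1 lies in the window chr18:26736828-26737127 on the plus strand, Egr2 in chr20:21054392-21054691 on the minus strand, Ier2 in chr19:40399123-40399422 on the plus strand and Jund, a member that did not pass, in chr16:18769722-18770021 on the minus strand, each written 5′ to 3′ along the gene:
Egr1: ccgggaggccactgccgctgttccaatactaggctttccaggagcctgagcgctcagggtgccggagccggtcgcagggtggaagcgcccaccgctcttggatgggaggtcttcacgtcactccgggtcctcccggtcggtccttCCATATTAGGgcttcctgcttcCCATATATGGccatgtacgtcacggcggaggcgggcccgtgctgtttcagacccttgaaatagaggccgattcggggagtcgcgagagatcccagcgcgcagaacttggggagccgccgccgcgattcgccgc
Egr2: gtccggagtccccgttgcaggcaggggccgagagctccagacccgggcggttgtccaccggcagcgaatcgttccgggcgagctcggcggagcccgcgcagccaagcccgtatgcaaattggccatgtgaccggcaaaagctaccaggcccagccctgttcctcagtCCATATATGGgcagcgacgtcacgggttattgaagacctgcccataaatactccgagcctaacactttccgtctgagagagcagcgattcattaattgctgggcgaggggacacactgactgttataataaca
Ier2: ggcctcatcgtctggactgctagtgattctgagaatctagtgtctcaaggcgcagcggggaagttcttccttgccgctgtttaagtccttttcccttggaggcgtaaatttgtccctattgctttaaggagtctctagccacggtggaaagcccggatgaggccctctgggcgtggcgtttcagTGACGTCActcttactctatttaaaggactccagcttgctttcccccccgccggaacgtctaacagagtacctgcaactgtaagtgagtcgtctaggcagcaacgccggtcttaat
Jund: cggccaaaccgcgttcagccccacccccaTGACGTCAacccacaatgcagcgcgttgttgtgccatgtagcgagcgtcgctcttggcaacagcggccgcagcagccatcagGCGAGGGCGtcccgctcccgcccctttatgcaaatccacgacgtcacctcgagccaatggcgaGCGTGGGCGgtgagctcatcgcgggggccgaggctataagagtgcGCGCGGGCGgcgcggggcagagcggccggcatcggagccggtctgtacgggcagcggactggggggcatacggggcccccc

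Egr1 held 2 CArG boxes, CCATATTAGG starting 105 bases and CCATATATGG starting 83 bases before the start, and Egr2 held 1, CCATATATGG starting 83 bases before the start. The CArG box was found in these 2 of 8 member promoters and in 1.64% of 33469 promoters of that length. The windows of Fosb, Fosl2, Junb and Ier2, which also rose, held none. The cyclic AMP element was found in Ier2, 66 bases before the start, and in Jund, and in 1.83% of all promoters. The EGR motif was found in Fosl2 and Jund, with 3 matches in Jund, and in 4.98% of all promoters. TGANTCA was found in 0 of 8 member promoters and in 7.33% of all. A match describes these letters in this window and is neither a bound site nor a cause of a change in level.

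**Figure D2:**
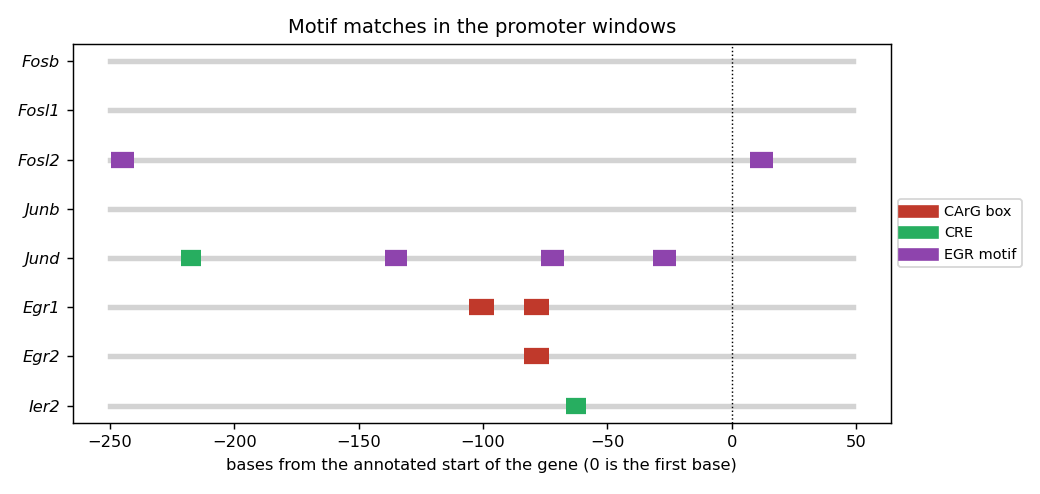
Positions of motif matches in the 8 member promoter windows, in bases from the annotated start of each gene (dotted line). Red marks the CArG box in Egr1 and Egr2, green the cyclic AMP element in Jund and Ier2, and purple the EGR motif in Fosl2 and Jund; the grey windows of Fosb, Fosl1 and Junb held no match.

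Of the 4 genes of the Fos subfamily 3 rose, and Fosl1 did not pass. Fos, which supplies the partner of Jun in the classical AP-1 dimer, was at 64.2, 53.1 and 57.8 CPM in eIF3m siRNA replicates 1, 2 and 3, and at 34.3, 39.3 and 34.3 CPM in control siRNA replicates 1, 2 and 3. Its groups did not overlap, and its log2 fold change was 0.73 ± 0.08 SE (adjusted p = 4.85e-06). Fosb, a relative of Fos, was at 17.9, 13.7 and 19.0 CPM in eIF3m siRNA replicates 1, 2 and 3, and at 7.94, 10.4 and 9.73 CPM in control siRNA replicates 1, 2 and 3. It was the member of the subfamily with the widest interval, 0.57 to 1.23 around a log2 fold change of 0.90 ± 0.16 SE (adjusted p = 2.90e-04). Its row rests on 31 to 187 counts in eIF3m siRNA libraries and 56 to 81 counts in control siRNA libraries. In the RefSeq table Fosb overlaps LOC103691049, whose own row held 2 to 13 counts in eIF3m siRNA libraries and 1 to 4 in control siRNA libraries. No source used here gives the strand setting of the counting, so reads of the pair may not be told apart.

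Fosl2, also called Fra-2, was at 151, 161 and 167 CPM in eIF3m siRNA replicates 1, 2 and 3, and at 119.8, 122 and 120.0 CPM in control siRNA replicates 1, 2 and 3. The control siRNA libraries lay close together and all eIF3m siRNA libraries lay above them, with a log2 fold change of 0.40 ± 0.05 SE (adjusted p = 1.76e-05). Fosl1, also called Fra-1, is a growth-factor-induced member that lacks the transactivation domain of Fos. It was at 169, 171 and 166 CPM in eIF3m siRNA replicates 1, 2 and 3, and at 158, 159 and 166 CPM in control siRNA replicates 1, 2 and 3. Those groups overlapped, and the log2 fold change of 0.06 ± 0.05 SE had a 95% interval from -0.04 to 0.16 (adjusted p = 0.326). With upper-quartile scaling Fosl1 passed at 0.13 (adjusted p = 0.0397), and with no scaling factors at 0.21 (adjusted p = 0.00237).

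Of the Jun subfamily, 1 gene rose. Junb encodes a Jun protein with weaker activation of AP-1 sites than Jun itself. It was at 129.5, 135 and 123 CPM in eIF3m siRNA replicates 1, 2 and 3, and at 107, 120.3 and 109 CPM in control siRNA replicates 1, 2 and 3. The gap between the groups was small beside their spread, and the log2 fold change was 0.19 ± 0.06 SE (95% interval 0.07 to 0.32, adjusted p = 0.0157). The call was lost without control siRNA replicate 1 (0.16, adjusted p = 0.0867) and without control siRNA replicate 3 (0.17, adjusted p = 0.0758).

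Jun, the founding partner of the family, was at 298, 296 and 298 CPM in eIF3m siRNA replicates 1, 2 and 3, and at 294, 294 and 291 CPM in control siRNA replicates 1, 2 and 3. Its values were the closest to each other of the 10 members, with a coefficient of variation of 0.471% in eIF3m siRNA and 0.645% in control siRNA libraries, below the counting error of 2.56% and 2.11%. The log2 fold change was 0.02 ± 0.04 SE with a 95% interval from -0.07 to 0.11 (adjusted p = 0.710). Jund, the Jun gene with the steadiest expression in most resting cells, was at 285, 291 and 289 CPM in eIF3m siRNA replicates 1, 2 and 3, and at 293, 286 and 269 CPM in control siRNA replicates 1, 2 and 3. The groups overlapped, and the log2 fold change of 0.03 ± 0.05 SE had a 95% interval from -0.07 to 0.13 (adjusted p = 0.649). With no scaling factors Jun stood at 0.17 (adjusted p = 0.00493) and Jund at 0.18 (adjusted p = 0.00757), and all 10 members were called higher. That setting moved the median of all genes tested to 0.16 on the log2 scale and called 32.7% of them higher, so the Fosl1, Jun and Jund values were close to that shift.

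Ier2, a small nuclear protein of the immediate early class outside both families, was at 122, 109.8 and 113 CPM in eIF3m siRNA replicates 1, 2 and 3, and at 77.3, 74.5 and 68.6 CPM in control siRNA replicates 1, 2 and 3. The groups were well apart, with a log2 fold change of 0.66 ± 0.06 SE (adjusted p = 5.38e-07). Of the 10 members it ranked second to Egr1 by p, at rank 462 of 12724 genes tested, where Egr1 was at rank 227.

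**Figure D3:**
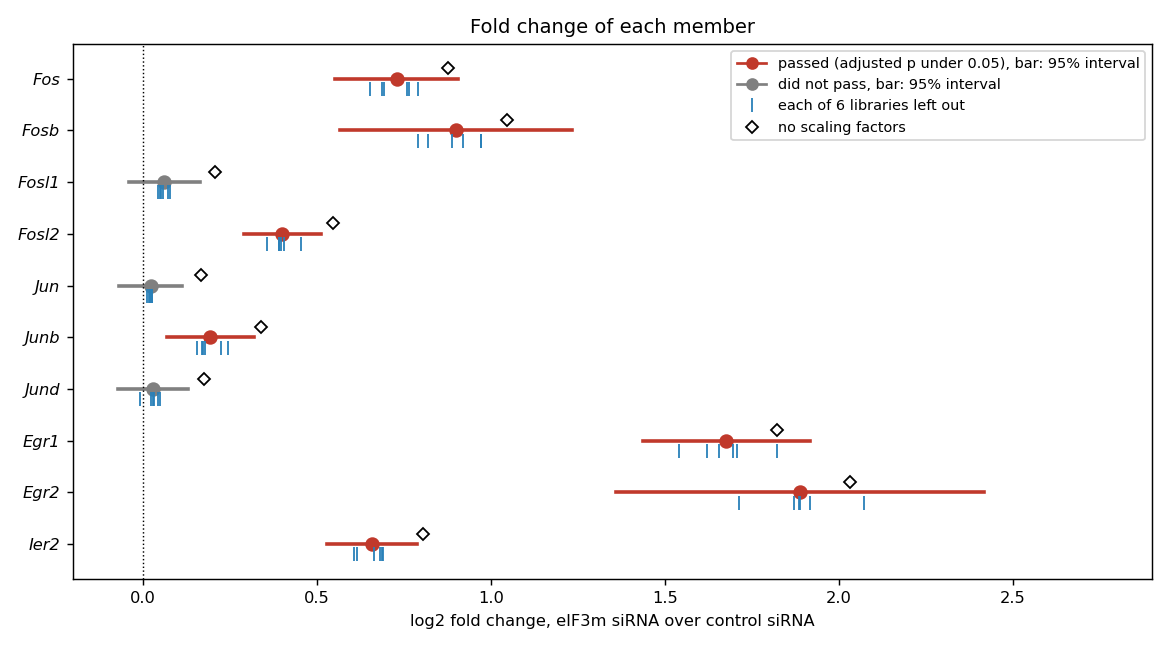
Log2 fold change of each member, eIF3m siRNA over control siRNA, with its 95% interval; red members passed at adjusted p under 0.05 and grey ones did not. Blue ticks give the value with each of the 6 libraries left out and open diamonds the value with no scaling factors, which lie to the right of the main value for all 10 members. Egr1 (1.68) and Egr2 (1.89) lie apart from the other 8 members.

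Ratios between members within a library do not depend on how libraries are scaled. There were 8 such ratios, each of raw counts and so not corrected for transcript length, and each was compared between groups by a two-sided exact permutation test, which cannot give a p below 0.1 with 3 libraries a group. Egr1 per Jun was 0.205, 0.190 and 0.220 in eIF3m siRNA replicates 1, 2 and 3, and 0.0802, 0.0535 and 0.0653 in control siRNA replicates 1, 2 and 3 (exact p = 0.1, adjusted p = 0.133). Every eIF3m siRNA library thus lay above every control siRNA library in that ratio, by a difference of 1.64 between the mean log2 ratios. Fos per Fosl1 was 0.346 ± 0.0352 in eIF3m siRNA libraries and 0.223 ± 0.0208 in control siRNA libraries (SD, n = 3 each, exact p = 0.1). Ier2 per Jun was 0.387 ± 0.0199 in eIF3m siRNA libraries and 0.251 ± 0.0136 in control siRNA libraries (SD, n = 3 each, exact p = 0.1). Fosb per Fosl1, Fosl2 per Fosl1 and Junb per Jun were also separated in the same direction, at the same smallest p. Every separated ratio had a risen member as numerator and Fosl1 or Jun, which did not pass, as denominator. Its upward separation was thus largely given by the choice of the pair. Jund per Jun overlapped between groups, at 0.971 ± 0.0145 in eIF3m siRNA and 0.965 ± 0.0353 in control siRNA libraries (SD, n = 3 each, exact p = 0.9). Egr2 per Egr1 overlapped too, at 0.140 ± 0.0152 in eIF3m siRNA and 0.122 ± 0.0493 in control siRNA libraries (SD, n = 3 each, exact p = 0.4).

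Summed over the 4 Fos genes, the level was 402, 399 and 409 CPM in eIF3m siRNA replicates 1, 2 and 3, and 320.4, 331 and 330.1 CPM in control siRNA replicates 1, 2 and 3, a ratio of means of 1.23 (exact permutation test, two-sided p = 0.1, the smallest possible). Summed over the 3 Jun genes, it was 713, 722 and 709.7 CPM in eIF3m siRNA replicates 1, 2 and 3, and 693, 699.8 and 669 CPM in control siRNA replicates 1, 2 and 3, a ratio of 1.04 (exact p = 0.1). Summed over Egr1 and Egr2, the means were 69.4 ± 4.38 CPM in eIF3m siRNA and 21.7 ± 3.73 CPM in control siRNA libraries (SD, n = 3each), a ratio of 3.20 (exact p = 0.1). Among the 3 Jun genes, Junb alone had passed. Scaled by library totals in place of TMM, the ratios were 1.36 for the Fos genes, 1.15 for the Jun genes and 3.54 for the Egr genes.

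Proteins that pair with or restrain these factors were measured from a list of each kind. Among 15 other partners of AP-1 dimers, 10 were tested, of which 2 rose and 2 fell, with a median log2 fold change of 0.07, where 17.4% of all genes tested rose and 21.2% fell. The rising count was 1 without eIF3m siRNA replicate 1, control siRNA replicate 1 or control siRNA replicate 3, and 6 rose and 2 fell with no scaling factors (3 and 2 with upper-quartile scaling). Atf3, a stress-induced partner of Jun, was at 34.9, 36.3 and 36.4 CPM in eIF3m siRNA replicates 1, 2 and 3, and at 22.6, 18.2 and 25.4 CPM in control siRNA replicates 1, 2 and 3 (log2 fold change 0.70 ± 0.11 SE, adjusted p = 1.57e-04). Atf7, a partner of Jun, rose less (0.21 ± 0.06 SE), and its call was lost with DESeq2 and without either of eIF3m siRNA replicates 1 and 3 or control siRNA replicates 1 and 3. Atf4, the effector of the integrated stress response, fell (-0.33 ± 0.03 SE), as did Mafk, a small Maf protein without an activation domain (-0.45 ± 0.06 SE). The Egr corepressors Nab1 and Nab2, which bind Egr proteins and dampen their activity, both fell. Nab2 averaged 75.1 ± 4.84 CPM in eIF3m siRNA and 91.4 ± 1.92 CPM in control siRNA libraries (SD, n = 3 each; log2 fold change -0.26 ± 0.06 SE, adjusted p = 0.00146). Nab1 was at -0.24 ± 0.06 SE (adjusted p = 0.00779), a call lost without eIF3m siRNA replicate 1 (-0.17, adjusted p = 0.0908). With no scaling factors neither passed (-0.12 for Nab2 and -0.09 for Nab1). Of the remaining pair of relatives, Egr3 was at 0.48 ± 0.37 SE (adjusted p = 0.328), and Egr4 did not pass the filter.

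Of 29 upstream kinases and factors, 26 were tested, of which 7 rose and 4 fell, with a median log2 fold change of -0.03, against 17.4% and 21.2% over all genes tested. The rising count was 4 without eIF3m siRNA replicate 3 or control siRNA replicate 1, and 9 rose and 2 fell with no scaling factors. Among those that fell were the ERK pathway kinases Map2k1 (-0.19 ± 0.05 SE) and Map2k2 (-0.32 ± 0.05), and Map2k5, which acts on ERK5 (-0.55 ± 0.12). Map2k1 did not pass with no scaling factors (adjusted p = 0.453) or with libraries thinned to the smallest total (adjusted p = 0.0540). Mapk3, an ERK kinase, was at -0.07 (adjusted p = 0.305). The Jun kinases Mapk8 (0.35 ± 0.07 SE) and Mapk9 (0.31 ± 0.06 SE) rose, as did Rps6ka5, a nuclear kinase of histone H3 and Creb1 (0.72 ± 0.18 SE, with groups that overlapped), and Elk4, a cofactor of serum response factor (0.24 ± 0.06 SE). Elk4 was lost without eIF3m siRNA replicate 3 (0.16, adjusted p = 0.0697) and with thinned libraries (0.23, adjusted p = 0.0688), where Rps6ka5 was lost too (0.50, adjusted p = 0.200). Srf, serum response factor itself, was at -0.12 ± 0.06 SE (adjusted p = 0.140).

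Of 39 other immediate early genes, 38 were tested, 10 rose, 14 fell and 14 did not pass, with a median log2 fold change of -0.06, beside 17.4% risen and 21.2% fallen among all genes tested. With no scaling factors 17 rose and 8 fell, where 32.7% of all genes tested rose, and with upper-quartile scaling 14 rose and 9 fell. Tnfaip3, an inhibitor of NF-kappaB signalling, averaged 79.9 ± 7.03 CPM in eIF3m siRNA and 35.0 ± 2.84 CPM in control siRNA libraries (SD, n = 3 each), a log2 fold change of 1.16 ± 0.08 SE. Sik1, a salt-inducible kinase (1.20 ± 0.16 SE), Errfi1, a feedback inhibitor of the EGF receptor (0.79 ± 0.08 SE), and Dusp6, a phosphatase of ERK (0.65 ± 0.06 SE), also rose. Ctgf, a matricellular protein, was the called member with the lowest p and fell (-1.05 ± 0.02 SE), as did Gadd45b, a stress sensor (-0.70 ± 0.05), Sgk1, a serum- and glucocorticoid-induced kinase (-0.48 ± 0.05), and Per1, a clock gene that glucocorticoids induce (-0.44 ± 0.05). Of the 28 textbook targets of AP-1 and Egr1, 22 were tested, of which 4 rose and 11 fell, with a median of -0.14, beside the same 17.4% risen and 21.2% fallen over all genes tested. With no scaling factors 6 rose and 7 fell, and with upper-quartile scaling 6 rose and 10 fell. Lif, a cytokine of the Il6 family (0.47 ± 0.09 SE), Il6 (0.61 ± 0.18), Areg, a ligand of the EGF receptor (1.79 ± 0.45), and Fgf2, a growth factor (1.23 ± 0.43), rose. Areg and Fgf2 averaged 2.44 ± 0.751 and 1.83 ± 0.431 CPM in eIF3m siRNA libraries, and 0.762 ± 0.466 and 0.818 ± 0.372 CPM in control siRNA libraries (SD, n = 3 each), levels near the floor, and Fgf2 overlaps Nudt6 in the RefSeq table. Areg was lost without eIF3m siRNA replicate 1 (adjusted p = 0.0528), Il6 without control siRNA replicate 3 (adjusted p = 0.0687) and with thinned libraries (adjusted p = 0.148), and Fgf2 with DESeq2 (adjusted p = 0.154), with no filter on low counts (adjusted p = 0.114) and without 4 of the 6 libraries in turn. Without eIF3m siRNA replicate 1 the rising count of this list was 2. Thbs1, thrombospondin 1 (-0.76 ± 0.02 SE), Spp1, osteopontin (-0.43 ± 0.03), and F3, tissue factor (-0.36 ± 0.04), fell.

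**Figure D4:**
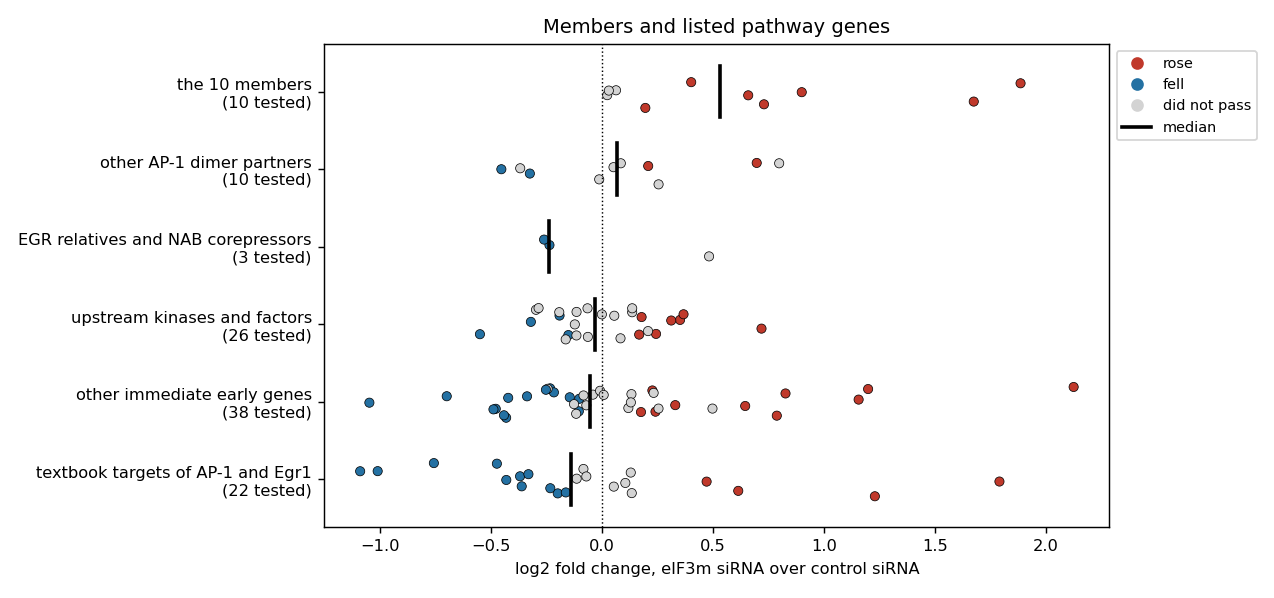
Log2 fold change, eIF3m siRNA over control siRNA, of every tested gene among the 10 members and 5 lists, with red for genes that rose, blue for genes that fell, grey for genes that did not pass and a black line for each median. The members' median is at 0.53 and the medians of the 5 lists lie between -0.24 and 0.07.

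By the root mean square difference of centred log2 CPM over the 6 libraries, among 9785 other genes with a mean of at least 5 CPM, the genes nearest to Egr1 were Abca1, a cholesterol exporter (0.15 on the log2 scale), Adgrg1, an adhesion receptor (0.16), and Map2, a microtubule protein (0.17). Those nearest to Fos were Hadh, an enzyme of fatty acid oxidation (0.04), Bub1b, a mitotic checkpoint kinase (0.06), and Ror1, a receptor tyrosine kinase-like protein (0.06). Those nearest to Jun were Slc41a1, a magnesium transporter, Eef1g, an elongation factor subunit, and Tecr, an enzyme of fatty acid elongation, each at 0.01. These values describe likeness of level across the same libraries and, with 2 groups, mostly a like difference between the groups.

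The eIF3m siRNA replicate 1 library, which stood apart in erythroid, endothelial and leukocyte markers and in Dcn, was not the highest of its group in Egr1, Egr2, Fosb, Fosl2 or Junb, and was the highest in Fos and Ier2. Without it all 7 calls stood, with log2 fold changes of 0.65 for Fos, 0.89 for Fosb, 0.46 for Fosl2, 0.18 for Junb and 0.61 for Ier2. The eIF3m siRNA libraries had lower summed cardiomyocyte, myoblast, smooth muscle and pericyte markers and a higher fibroblast sum, which was mostly Col1a1. The smooth muscle and pericyte sum was mostly Acta2, while Cspg4 and Notch3 of that list rose. What part these sums have in the differences of the members was not tested.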

How the data were processed

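The authors deposited 1 file per library with whole-number read counts per gene symbol and no normalisation. Per the submitters' processing notes, Trimmomatic 0.40, HISAT2 2.2.1, featureCounts, DESeq2, limma and build rn6 are named without role; annotation, strand and multi-mapping settings were not given in the sources used here. A SMARTER mRNA kit was used on 1.3 ug of total RNA, per the labels' protocols. In each file 27 rows whose symbols had become calendar dates were left out (0.203% to 0.216% of counts).

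Genes kept by filterByExpr (minimum count 10, minimum total 15) were scaled by TMM and compared, eIF3m siRNA over control siRNA, by the two-sided quasi-likelihood test of edgeR 4.0.16 (R 4.3.3) with no covariate. P-values were Benjamini-Hochberg adjusted over all genes tested, with a threshold of 0.05. CPM is relative to the TMM-scaled total of tested genes. Errors are SD over 3 libraries or SE of the fit, and floors and counting errors cover counting error alone. DESeq2 1.42.0 and limma 3.58.1 were alternatives. Ratios between members were compared with exact permutation tests in scipy 1.17.1, and subfamily sums with exact permutation tests in R. The replicates of a group differed by more than counting noise. The chi-square per degree of freedom was 1.83 to 2.30 between control siRNA libraries. Between eIF3m siRNA libraries it was 4.28 and 9.13 for the pairs with replicate 1 and 2.38 for replicates 2 and 3.

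The members and lists were chosen with earlier results of these data known. The genes named are all members, up to 4 called genes per direction and list with the lowest p, and the 3 genes nearest to Fos, Jun and Egr1; Egr3, Egr4, Mapk3 and Srf were named after their values were seen. Some genes named by this rule are not reported here. Sequences are from RefSeq (GRCr8), which was otherwise used for gene overlaps alone.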

Additional observations from a re-analysis of the deposited data

How the results depend on the processing

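Each of the 10 members was refitted under 15 alternatives. Egr1, Egr2, Fos, Fosb, Fosl2 and Ier2 kept their direction and passed in all 15, with log2 fold changes of 1.51 to 1.82, 1.71 to 2.25, 0.65 to 0.88, 0.79 to 1.28, 0.36 to 0.55 and 0.61 to 0.81. The number of members called higher was 7, except 8 with upper-quartile scaling, 10 with no scaling factors, and 6 without control siRNA replicate 1 or 3, where Junb was lost. Jund turned to -0.0086 without control siRNA replicate 3, and ranged up to 0.051 when other libraries were left out. Over all genes, 4163 rose and 1680 fell with no scaling factors, and 1371 rose and 1784 fell with libraries thinned to the smallest total. The share of calls toward higher values was 45.1% with TMM, 58.6% with upper-quartile scaling and 71.3% with no scaling factors. Deviations of same-numbered replicates from their group means had correlations of 0.03, -0.01 and 0.01, and the numbers were not taken as pairs. These values do not show that same-numbered libraries were prepared separately, since eIF3m siRNA replicate 1 stood apart and replicate 2 was the shallowest. With a replicate block 7 members rose and 0 fell, and 2123 genes rose and 2632 fell. Among the named genes the block changed the call of Fgf2 alone (1.13, adjusted p = 0.0742).

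With no scaling factors, 6 AP-1 partners rose, 0 of the Egr relatives and corepressors fell, 2 upstream genes fell, 17 other immediate early genes rose and 8 fell, and 7 textbook targets fell. With DESeq2, 1 AP-1 partner and 4 upstream genes rose. With upper-quartile scaling 9 other immediate early genes fell. With thinned libraries 3 upstream genes rose and 2 fell, 9 other immediate early genes fell and 1 textbook target rose. Leaving out 1 library at a time gave 1 to 2 risen AP-1 partners, 1 to 2 fallen Egr relatives and corepressors, 4 to 7 risen upstream genes and 2 to 5 risen textbook targets. The cause of these moves was not tested, except that thinning lowers the counts. Low levels are least certain in eIF3m siRNA replicate 2, the shallowest library: a level of 3 counts was worth 1.33 CPM there, against 0.287 to 0.425 CPM in the other libraries.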
